A study of Homo sapiens with 9 samples.

Results

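Small nucleolar RNAs (snoRNAs) are short RNAs that guide enzymes to the bases of ribosomal RNA that are to be modified. Most human snoRNAs lie in introns and are cut out of the introns after splicing, so each of them depends on the transcription of a host gene. The small nucleolar RNA host genes (SNHG genes), with GAS5, ZFAS1 and EPB41L4A-AS1, are hosts whose spliced exons are usually regarded as noncoding. They have long been studied together with ribosome production, since several of them start, like the messenger RNAs of ribosomal proteins, with a run of pyrimidines called a TOP sequence (terminal oligopyrimidine) that ties translation to growth signals. GAS5 was named after growth arrest, in which its spliced RNA accumulates, and translation of such short reading frames exposes the spliced RNAs to nonsense-mediated decay. Box C/D snoRNAs direct 2'-O-methylation and box H/ACA snoRNAs direct pseudouridylation.

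These genes were selected by name as the count table's rows called SNHG followed by a number, together with GAS5, ZFAS1 and EPB41L4A-AS1. The rule found 31 genes, 28 of them called SNHG, among 59050 rows. MEC1, an established cell line from chronic lymphocytic leukemia (CLL), was measured in 3 conditions with 3 samples each. The samples were a 2D culture, cells bioprinted within a hydrogel scaffold and harvested at day 7 (3D_7d), and scaffolds harvested at day 14 (3D_14d). The labels name no drug, and all groups are the same line, so nothing but the culture and its handling differed by label. RNA of scaffolds was extracted with TRIzol, treated with DNase I and then purified on a column. RNA of 2D cultures was extracted on the column without TRIzol, in a protocol that also had a DNase step. Culture and extraction therefore cannot be told apart in a comparison with 2D. The labels give no day of harvest for the 2D cultures, so time in culture cannot be told apart from these either. Both time points in 3D shared the extraction. The labels do not say whether the 3 samples of a group were separate cultures, and p-values then measure only the spread between these samples, which may be technical.

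The samples held from 54662799 to 85968686 counts each. All 6 B cell markers were above 1 CPM (read counts scaled to the size of the library) in every sample, with a sum of 2511 to 3784 CPM, while 4 T cell markers summed to at most 1.45 CPM and 3 monocyte markers to at most 0.880 CPM. The 3 NK cell markers summed to between 1.99 and 6.85 CPM. Fibroblast markers summed to between 10.2 and 11.4 CPM in 2D and to between 2.28 and 7.82 CPM in 3D, and erythroid markers to between 0.0787 and 0.118 CPM in 2D and to between 1.29 and 4.36 CPM in 3D. Their part in the results was not tested. The samples of day 14 differed most among themselves. For the host genes, the median coefficient of variation between replicates was 25.6% at day 14, against 11.3% for day 7 and 10.3% for 2D, beside 23.4%, 13.1% and 9.44% over all genes. At day 14, replicate 1 held the highest value for 17 of 27 host genes and replicate 2 the lowest for 17 of 27.

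A TOP sequence, where a gene has one, lies at its start, so the starts of host genes are shown before the values. Shown are the 8 host genes with the largest falls at day 7 among those called and with a sequence to print, in that order, which leaves out SNHG25 and SNHG6, and then SNHG30, the one host gene that was higher at day 14. The windows run from 10 bases before to 40 bases after the start given by RefSeq (GRCh38.p14), 5′ to 3′ on the strand of the gene, with CTTT in capitals where it begins within 10 bases of that start.
SNHG32: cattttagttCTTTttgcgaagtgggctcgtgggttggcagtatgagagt
ZFAS1: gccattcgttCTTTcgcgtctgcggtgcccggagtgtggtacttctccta
EPB41L4A-AS1: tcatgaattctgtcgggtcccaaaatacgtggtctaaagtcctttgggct
SNHG5: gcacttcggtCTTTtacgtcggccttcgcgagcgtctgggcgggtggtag
SNHG12: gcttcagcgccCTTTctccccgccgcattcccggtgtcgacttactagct
SNHG19: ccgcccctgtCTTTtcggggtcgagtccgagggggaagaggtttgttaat
SNHG21: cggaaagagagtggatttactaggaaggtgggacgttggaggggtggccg
SNHG1: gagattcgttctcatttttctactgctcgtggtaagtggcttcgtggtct
SNHG30: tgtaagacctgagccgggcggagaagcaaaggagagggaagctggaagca
The windows lie at chr6:31834906-31834955 (plus strand), chr20:49278632-49278681 (plus), chr5:112160516-112160565 (plus), chr6:85678694-85678743 (minus), chr1:28581834-28581883 (minus), chr16:2155319-2155368 (minus), chr15:82750554-82750603 (plus), chr11:62855846-62855895 (minus) and chr17:35568104-35568153 (plus). CTTT was found near the start in 5 of the 8, and not in EPB41L4A-AS1, SNHG21 and SNHG1. In SNHG32, ZFAS1, SNHG5 and SNHG19 the first transcribed base was the C of CTTT, while SNHG30 began with neither CTTT nor another run of pyrimidines. RefSeq gave a window for 27 of the 31 host genes, and 16 of these starts lay within 60 bases of the start in the count table. The window of ZFAS1 lay 464 bases, that of SNHG5 199 bases and that of SNHG12 1113 bases downstream of it.

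CTTT began within 10 bases of the start in 9 of the 27 windows (33.3%), against 10.2% of 35116 promoters in RefSeq and 59.0% of 78 ribosomal protein genes. Among the host genes that were tested and had a window, 7 of the 14 called lower at day 7 and 2 of the 9 not called had it. On the opposite strand the same letters were found at 1 of 27 host gene starts and 7.49% of all promoters. The E-box CACGTG, which reads the same on both strands and is bound by MYC among other factors, was present in the 300 bases around the start in 2 host genes, SNHG7 and SNHG30, or 7.41%, against 7.26% of all promoters. A match is a description of letters and not a tested site.

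Of the 31 host genes, 27 passed a filter of more than 1 CPM in at least 3 samples. They lie on 14 chromosomes, and their summed exon length ranged from 278 bases in SNHG25 to 86593 bases in SNHG14. The other 4 were near absence. SNHG22 had 98 counts over the 9 samples together, SNHG27 and SNHG18 had 11 each and SNHG28 had 8. Levels between genes can be compared only per length, as RPKM (CPM per kilobase of summed exons). In 2D, SNHG15 had the highest level per length (64.7 RPKM), followed by GAS5 (55.3), SNHG29 (42.6), SNHG6 (34.2) and SNHG32 (23.9), while SNHG14, which spans the long imprinted locus of the SNORD116 and SNORD115 clusters, was at 0.126 RPKM. SNHG6 shares 37.5% and SNHG32 55.9% of exonic bases with other genes, and how reads there were assigned is not given. Their places in this order are therefore uncertain. Together the host genes took 0.118% to 0.131% of all counts in 2D, 0.0616% to 0.0664% at day 7 and 0.0646% to 0.0948% at day 14. The highest of the last group was replicate 1, and the summed share of every scaffold sample was below that of every 2D sample.

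**Figure D1:**
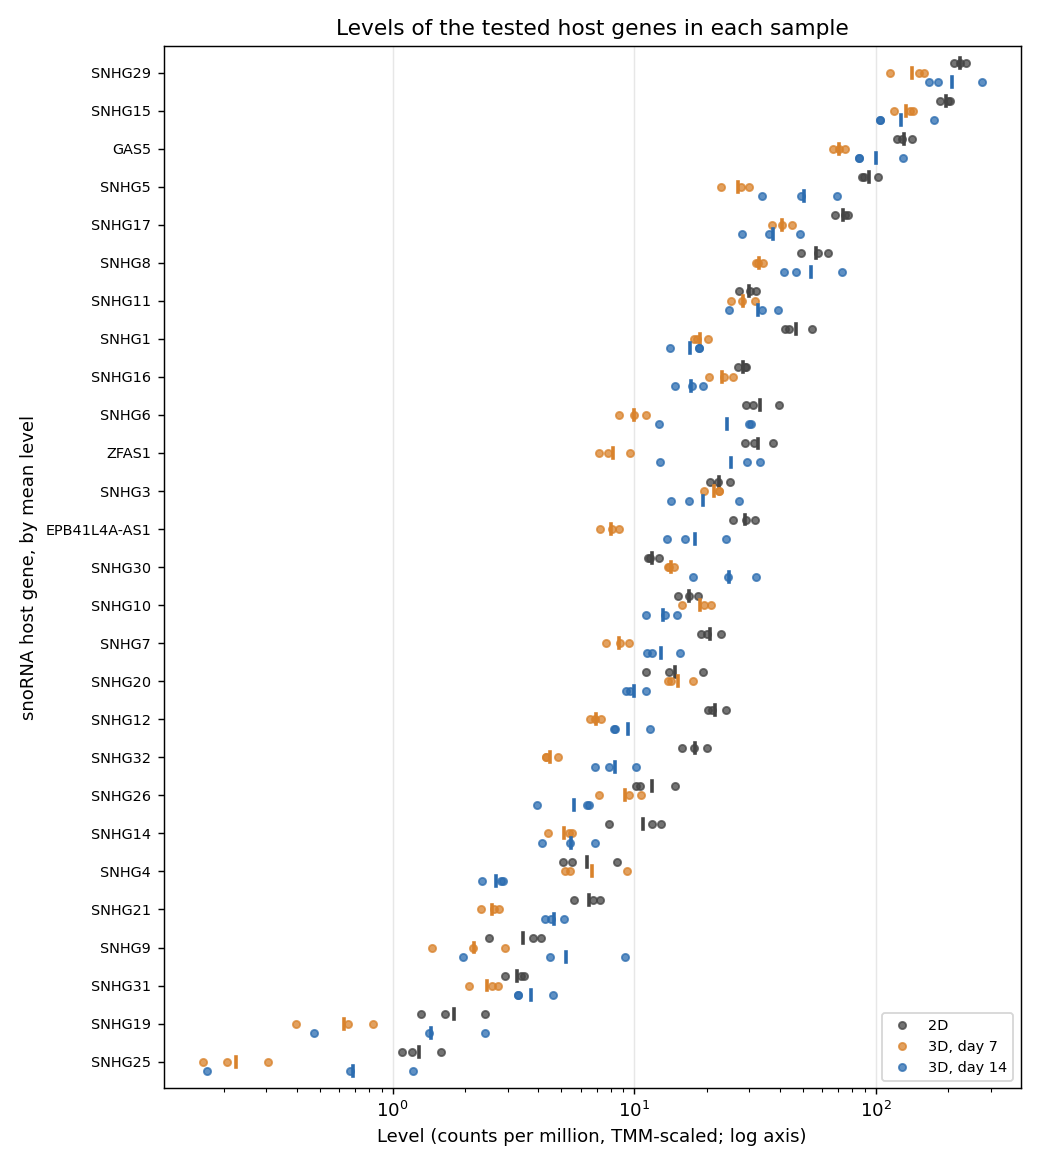
Levels of the 27 tested host genes in CPM (TMM-scaled, log axis), 1 point per sample and a vertical tick for the mean of the 3 samples of a group, ordered by mean level. For GAS5, SNHG5, ZFAS1 and EPB41L4A-AS1, among others, the 3 samples of day 7 lie left of all samples in 2D, and the samples of day 14 spread widely.

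At day 7, the host genes were lower as a group. None of the 27 was called higher and 17 were called lower (63.0%), with an adjusted p of at most 0.05 in edgeR's quasi-likelihood test adjusted over all 13463 genes with the Benjamini-Hochberg method. Over all genes, 22.2% were called higher and 21.2% lower. The DESeq2 Wald test likewise called no host gene higher and 17 lower. The median log2 fold change of the host genes was -0.83, with a range of -2.51 to 0.25, and that of all genes was -0.0039. The lowest value and 1 of the 17 calls are those of SNHG25, which passed the filter through its 2D samples. SNHG19, also among the 17, likewise needed its 2D samples to pass. The 3 samples of day 7 did not overlap with the 3 of 2D for 20 of the 27, or 74.1%, against 64.6% of all genes. With 3 samples in each group, an exact permutation test of a single gene cannot give a p under 0.1. Bulk RNA cannot tell fewer cells that express a gene from less RNA per cell.

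At day 14, 12 host genes were lower than in 2D (44.4%) and 1 was higher, SNHG30, with the same test. Over all genes, 17.2% were lower and 19.0% higher. The median log2 fold change was -0.56 for the host genes and 0.02 for all genes, and the groups did not overlap for 15 of 27 (55.6%) against 49.7% of all genes. From day 7 to day 14, 11 host genes rose (40.7%) and 1 fell, SNHG4, against 14.5% and 13.6% of all genes. The median of this comparison was 0.55, and that of all genes -0.0012. Here 18 of 27 groups did not overlap (66.7%), against 39.3% of all genes. Both comparisons with 2D share the 2D samples, and both comparisons with day 7 share its samples. Without replicate 1 of day 14, 14 host genes were lower than in 2D, 8 rose from day 7 and 2 fell, and the median rise was 0.31. Without replicate 2 of day 14, 10 were lower than in 2D, 14 rose and 2 fell.

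**Figure D2:**
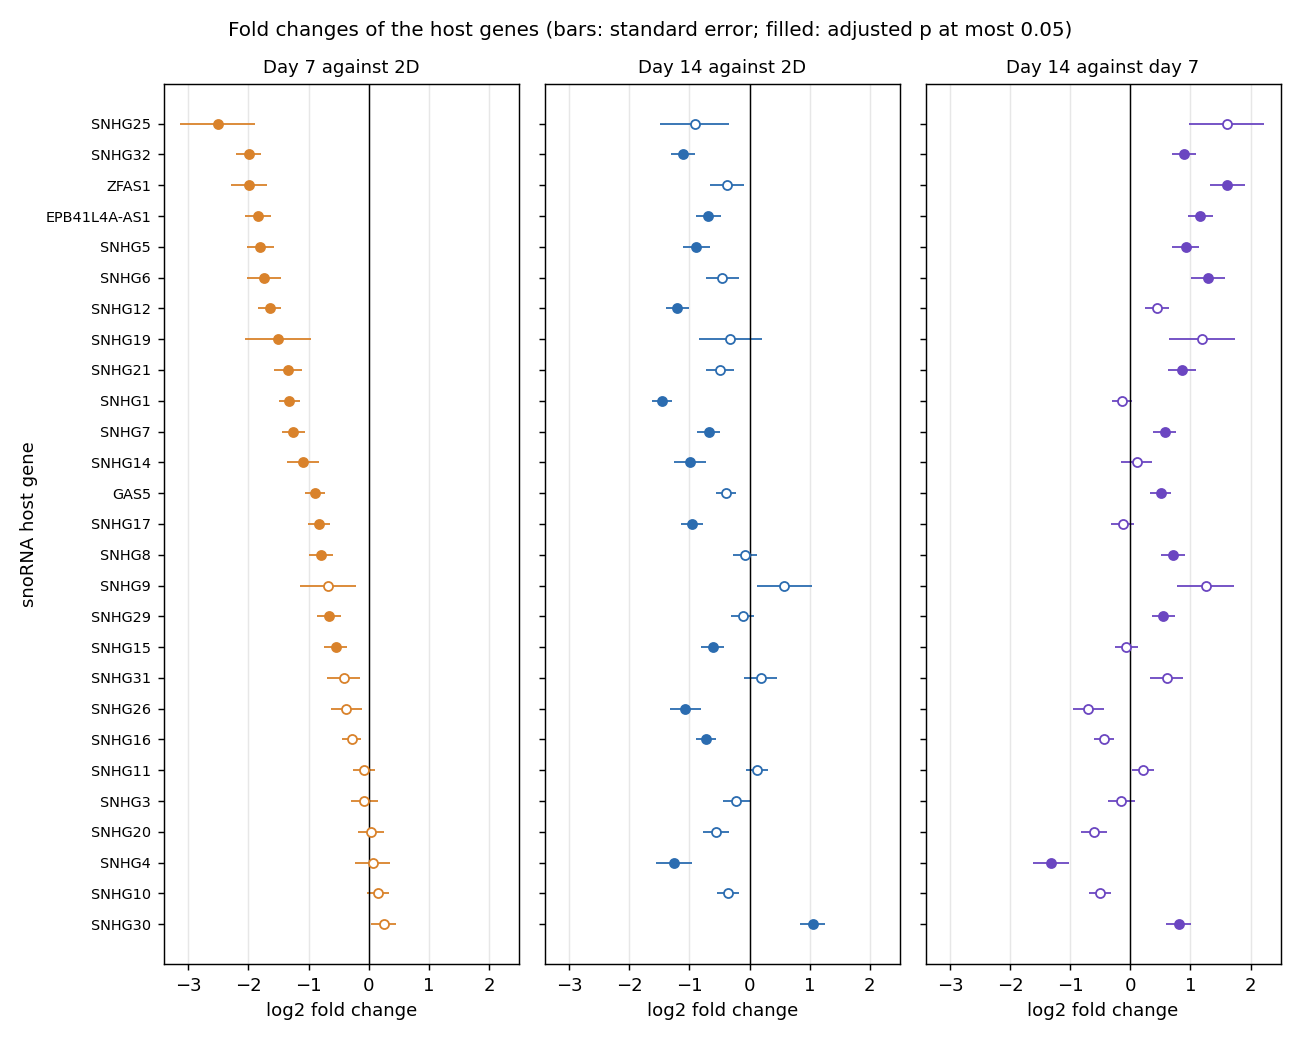
Log2 fold change of each tested host gene in 3 comparisons (x axes, bars ± SE), ordered by the change at day 7, with filled points where the adjusted p was at most 0.05. At day 7 all 17 filled points lie left of 0, and between the time points 11 filled points lie right of 0 and 1, SNHG4, left of it.

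Hosts were classed by the snoRNA rows inside their bounds in this table, which leaves GAS5 without a class. The hosts of box C/D snoRNAs alone numbered 11 among those tested, of which 8 were lower at day 7 (median log2 fold change -1.32), against 21.2% of all genes. ZFAS1 (chr20:49278178-49299600, plus strand), the host of the SNORD12 snoRNAs, had 37.7, 28.9 and 31.2 CPM in 2D, 7.18, 7.78 and 9.65 CPM at day 7 and 29.2, 12.8 and 33.1 CPM at day 14. All samples of day 7 lay below all samples of 2D, and at day 14 replicates 1 and 3 lay within the range of 2D while replicate 2 lay close to day 7. It fell 3.97-fold to day 7 (log2 fold change -1.99 ± 0.30 SE, adjusted p = 0.000234, edgeR) and rose 3.05-fold from day 7 to day 14 (1.61 ± 0.29, adjusted p = 0.00219). The difference between day 14 and 2D was -0.38 ± 0.28 (adjusted p = 0.317). Both calls remained past the threshold in all 19 alternatives.

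SNHG5 (chr6:85660943-85678932, minus strand), which hosts SNORD50 genes, had 103, 88.1 and 89.7 CPM in 2D, 29.9, 22.8 and 27.6 CPM at day 7 and 69.1, 33.9 and 49.0 CPM at day 14. None of the 3 groups overlapped with another. It fell at day 7 by 1.80 ± 0.23 on the log2 scale (adjusted p = 7.32e-05), was still lower at day 14 (-0.88 ± 0.22, adjusted p = 0.00776) and rose between the time points (0.92 ± 0.22, adjusted p = 0.00929). SNHG6 on chromosome 8, the host of SNORD87, had 39.7, 31.1 and 29.0 CPM in 2D, 11.2, 8.69 and 9.93 CPM at day 7 and 30.4, 12.6 and 29.9 CPM at day 14. As in ZFAS1, replicates 1 and 3 of day 14 were within the range of 2D and replicate 2 near those of day 7. SNHG6 fell by 1.74 ± 0.29 at day 7 (adjusted p = 0.000474) and rose by 1.29 ± 0.28 to day 14 (adjusted p = 0.00607), and its level at day 14 did not pass the test against 2D (-0.45 ± 0.28, adjusted p = 0.222).

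SNHG32 (chr6:31834922-31839766, plus strand), the host of SNORD48 and SNORD52 within the MHC class III region, had 20.1, 17.7 and 15.8 CPM in 2D, 4.31, 4.32 and 4.82 CPM at day 7 and 10.2, 7.85 and 6.91 CPM at day 14. Its 3 groups were separate from each other, with day 7 lowest and day 14 in between. Its log2 fold change was -1.99 ± 0.21 at day 7 (adjusted p = 2.40e-05), -1.10 ± 0.20 at day 14 (adjusted p = 0.00130) and 0.89 ± 0.21 between the time points (adjusted p = 0.00759). The last call was lost with a trend with gene length removed (adjusted p up to 0.150 over the alternatives). SNHG1 (chr11:62851988-62855906, minus strand), which carries 6 box C/D snoRNAs in this table and is a frequently reported lncRNA in tumours, had 42.1, 43.6 and 54.5 CPM in 2D, 18.2, 17.7 and 20.3 CPM at day 7 and 18.5, 14.1 and 18.5 CPM at day 14. Here day 14 overlapped with day 7, and both lay below all samples in 2D. SNHG1 was lower than 2D at both times (-1.32 ± 0.17, adjusted p = 0.000101 and -1.46 ± 0.17, adjusted p = 7.80e-05), and between the times it changed by -0.14 ± 0.17 (adjusted p = 0.583).

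SNHG29 (chr17:16439005-16473081, plus strand), the host of SNORD49A, SNORD49B and SNORD65, had the highest CPM of all host genes, with 236, 210.3 and 223 CPM in 2D, 114, 151 and 158 CPM at day 7 and 274, 180.2 and 166 CPM at day 14. Day 7 lay below 2D in every sample, while replicate 1 of day 14 was above every sample of 2D and replicates 2 and 3 were below them. It fell by 0.66 ± 0.19 at day 7 (adjusted p = 0.0148), a call lost without replicate 1 of day 7 (adjusted p = 0.0598). The rise between the times was 0.55 ± 0.19 (adjusted p = 0.0492) and was lost in 12 of 19 alternatives, among them those without any one sample of 2D or day 7 and without replicate 1 of day 14, with an adjusted p of up to 0.164.

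SNHG16 (chr17:76557766-76565348, plus strand), the host of SNORD1A, SNORD1B and SNORD1C, had 27.01, 28.8 and 28.9 CPM in 2D, 20.4, 23.5 and 25.6 CPM at day 7 and 14.8, 17.4 and 19.3 CPM at day 14. Its 3 groups did not overlap and stepped down from 2D to day 14. At day 7 the difference did not pass the test (-0.28 ± 0.16, adjusted p = 0.173), and at day 14 SNHG16 was lower (-0.72 ± 0.16, adjusted p = 0.00454). SNHG26 (chr7:22854126-22861436, plus strand), which holds SNORD93, showed a like order, with 10.1, 10.53 and 14.8 CPM in 2D, 9.47, 10.7 and 7.17 CPM at day 7 and 6.52, 3.96 and 6.39 CPM at day 14. Day 7 and 2D overlapped, and day 14 lay below both. SNHG26 was lower at day 14 (-1.07 ± 0.26, adjusted p = 0.00644), and the difference between the times did not pass the test (-0.70 ± 0.26, adjusted p = 0.0601). In the DESeq2 Wald test SNHG26 (-0.68, adjusted p = 0.0385) and SNHG16 (-0.42, adjusted p = 0.0455) were lower at day 14 than at day 7.

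SNHG14 (chr15:24979557-25420336, plus strand) had 7.83, 11.9 and 12.9 CPM in 2D, 5.54, 4.41 and 5.37 CPM at day 7 and 4.14, 5.41 and 6.91 CPM at day 14. Every scaffold sample was below every 2D sample. Its log2 fold change was -1.09 ± 0.26 at day 7 (adjusted p = 0.00496) and at day 14 it was -0.99 ± 0.26 (adjusted p = 0.0107), and the second call was just lost without replicate 3 of 2D (adjusted p = 0.0502). SNHG19 (chr16:2154797-2155358, minus strand), the host of SNORD60, had low levels of 2.42, 1.31 and 1.65 CPM in 2D, 0.828, 0.656 and 0.398 CPM at day 7 and 2.42, 0.474 and 1.42 CPM at day 14. Day 7 was below 2D in every sample and day 14 spanned both. Outside 2D only replicates 1 and 3 of day 14 were above 1 CPM, so SNHG19 needed its 2D samples to pass the filter. That selection favours a fall against 2D. The fall at day 7 (-1.51 ± 0.55, adjusted p = 0.0416) was lost in 9 of 19 alternatives, with an adjusted p of up to 0.136, among them those without replicate 1 or 3 of 2D, any one of day 7 or replicate 3 of day 14.

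SNHG30 (chr17:35568109-35574843, plus strand), the host of SNORD7, went the other way, with 12.7, 11.4 and 11.6 CPM in 2D, 14.7, 14.0 and 13.7 CPM at day 7 and 32.0, 17.4 and 24.5 CPM at day 14. The groups did not overlap, and every sample of day 14 was above all other samples. It was 2.07-fold higher at day 14 than in 2D (1.05 ± 0.21, adjusted p = 0.00210) and rose between the times (0.80 ± 0.21, adjusted p = 0.0132), and at day 7 its difference was 0.25 ± 0.21 (adjusted p = 0.353). Both calls stayed past the threshold in all 19 alternatives.

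The hosts of box H/ACA snoRNAs alone numbered 10 among those tested, of which 5 were lower at day 7 (median log2 fold change -0.61), against 21.2% of all genes. The difference from the box C/D hosts was not tested. EPB41L4A-AS1 (chr5:112160526-112164818, plus strand), named as an antisense transcript and the host of SNORA13, had 31.6, 29.0 and 25.7 CPM in 2D, 8.66, 8.09 and 7.19 CPM at day 7 and 23.9, 13.7 and 16.2 CPM at day 14. The 3 groups did not overlap. It fell 3.60-fold at day 7 (-1.85 ± 0.22, adjusted p = 4.61e-05) and rose from there to day 14 (1.17 ± 0.21, adjusted p = 0.00228). It was still lower than 2D at day 14 (-0.68 ± 0.21, adjusted p = 0.0226), a call lost without replicate 1 or 2 of 2D or replicate 2 or 3 of day 14 (adjusted p up to 0.0837).

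SNHG7 (chr9:136721366-136728184, minus strand), the host of SNORA17A and SNORA17B, had 22.9, 20.001 and 19.0 CPM in 2D, 9.56, 8.74 and 7.66 CPM at day 7 and 15.5, 11.3 and 11.8 CPM at day 14. Its groups were separate, with day 14 between the others. It was lower at day 7 (-1.25 ± 0.19, adjusted p = 0.000265) as well as at day 14 (-0.68 ± 0.19, adjusted p = 0.0132), the latter lost without replicate 1 of 2D (adjusted p = 0.0604). Its rise between the times (0.57 ± 0.19, adjusted p = 0.0388) was lost in 10 of 19 alternatives, among them those without any one sample of 2D, replicate 2 or 3 of day 7 or replicate 1 of day 14, with an adjusted p of up to 0.229. SNHG8 (chr4:118278709-118285316, plus strand), the host of SNORA24, had 63.4, 57.6 and 49.1 CPM in 2D, 31.9, 34.0 and 32.6 CPM at day 7 and 72.7, 41.9 and 46.8 CPM at day 14. Day 7 was tight and below all other samples, and replicate 1 of day 14 was the highest of all 9. It fell at day 7 (-0.79 ± 0.20, adjusted p = 0.00666) and rose again (0.71 ± 0.20, adjusted p = 0.0186), the rise lost without any one sample of day 7 (adjusted p up to 0.0576). At day 14 it was -0.08 ± 0.20 from 2D (adjusted p = 0.791).

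SNHG15 (chr7:44983023-44986961, minus strand), the host of SNORA9, had 199, 184 and 202 CPM in 2D, 119, 139 and 143 CPM at day 7 and 174, 104 and 104 CPM at day 14. All scaffold samples lay below all 2D samples. On the log2 scale it fell by 0.55 ± 0.19 at day 7 (adjusted p = 0.0352), and the fall by day 14 was 0.61 ± 0.19 (adjusted p = 0.0249). Both calls were lost without any one sample of 2D, and also without any one of day 7 (first call, adjusted p up to 0.106) or replicate 2 or 3 of day 14 (second call, up to 0.0820). SNHG17 (chr20:38419638-38435409, minus strand), which carries the SNORA71 genes, had 67.5, 74.3 and 77.0 CPM in 2D, 44.97, 40.9 and 37.4 CPM at day 7 and 48.7, 36.2 and 28.0 CPM at day 14. It was lower at day 7 (-0.83 ± 0.19, adjusted p = 0.00360) as well as at day 14 (-0.95 ± 0.19, adjusted p = 0.00206) in all 19 alternatives, and the time points overlapped (-0.13 ± 0.19, adjusted p = 0.646).

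SNHG4 (chr5:139274102-139284899, plus strand), which holds SNORA74A and SNORA74D, had 5.08, 5.52 and 8.50 CPM in 2D, 5.18, 9.38 and 5.42 CPM at day 7 and 2.35, 2.86 and 2.80 CPM at day 14. Day 7 and 2D overlapped, and all 3 samples of day 14 lay below both. In edgeR's test it was the one host gene that fell from day 7 to day 14 (-1.32 ± 0.30, adjusted p = 0.00761), while the DESeq2 Wald test called 5. SNHG4 was also lower than 2D at day 14 (-1.25 ± 0.30, adjusted p = 0.00649, edgeR), and both of its calls stayed past the threshold in all 19 alternatives. Of its exonic bases, 6.84% are shared with other genes. SNHG11 (chr20:38446680-38450921, plus strand), the host of SNORA60 and SNORA71E, had 27.2, 32.0 and 30.2 CPM in 2D, 25.3, 27.8 and 31.6 CPM at day 7 and 39.3, 33.8 and 24.8 CPM at day 14. All groups overlapped, and its log2 fold changes were -0.08, 0.13 and 0.21, in the order of day 7 against 2D, day 14 against 2D and day 14 against day 7, with an adjusted p of at least 0.418 (edgeR).

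SNHG12 and SNHG25 hold both classes of snoRNA. SNHG12 (chr1:28578538-28582986, minus strand), the host of SNORA16A, SNORA44, SNORA61 and SNORD99, had 20.9, 20.1 and 23.96 CPM in 2D, 7.30, 6.87 and 6.58 CPM at day 7 and 11.6, 8.33 and 8.25 CPM at day 14. Every scaffold sample was below every 2D sample and day 7 was below day 14. It was lower at day 7 (-1.65 ± 0.19, adjusted p = 5.00e-05) as well as at day 14 (-1.20 ± 0.19, adjusted p = 0.000521) in all 19 alternatives, and the rise between the times did not pass the test (0.44 ± 0.19, adjusted p = 0.101). SNHG25 (chr17:64145970-64146476, plus strand), the host of SNORD104 and SNORA50C, is short and had 1.58, 1.21 and 1.09 CPM in 2D, 0.207, 0.164 and 0.303 CPM at day 7 and 0.665, 0.171 and 1.22 CPM at day 14. It had the most negative log2 fold change of all host genes at day 7, -2.51 ± 0.62 (adjusted p = 0.00611), on few reads. Outside 2D only replicate 3 of day 14 was above 1 CPM, so SNHG25 passed the filter through the group where it was high. That selection favours a fall against 2D. Its level at day 14 spanned that of both other groups.

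GAS5 and SNHG21, like SNHG10 and SNHG20, had no snoRNA row inside their bounds in this table. GAS5 (chr1:173858559-173868882, minus strand), known as the host of a cluster of box C/D snoRNAs, had 128, 122 and 142 CPM in 2D, 66.4, 70.2 and 74.5 CPM at day 7 and 129, 85.3 and 85.3 CPM at day 14. Day 7 was lowest in every sample, and at day 14 replicate 1 reached the range of 2D while replicates 2 and 3 lay between the groups. GAS5 fell 1.86-fold at day 7 (-0.89 ± 0.17, adjusted p = 0.00124) in all 19 alternatives. Its rise between the times (0.51 ± 0.17, adjusted p = 0.0423) was lost in 11 of 19, among them those without any one sample of 2D or day 7 or without replicate 1 of day 14, with an adjusted p of up to 0.182. Against 2D, day 14 differed by -0.39 ± 0.17 (adjusted p = 0.0924) with all samples, and without replicate 1 of day 14 GAS5 was lower (-0.61, adjusted p = 0.00166), as in 3 other alternatives, while without replicate 2 the difference was -0.28. SNHG21 (chr15:82750572-82757206, plus strand) had 6.73, 5.61 and 7.20 CPM in 2D, 2.31, 2.62 and 2.77 CPM at day 7 and 5.12, 4.29 and 4.54 CPM at day 14. The groups did not overlap, and day 7 was lowest. SNHG21 was lower at day 7 (-1.34 ± 0.24, adjusted p = 0.000745) and rose to day 14 (0.86 ± 0.24, adjusted p = 0.0179), the rise lost without replicate 2 of day 7 and in 4 other alternatives (adjusted p up to 0.261).

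With all samples, SNHG3, SNHG9, SNHG10, SNHG20 and SNHG31 passed no test, and neither did SNHG11. SNHG3, the host of the abundant SNORA73 snoRNAs, had log2 fold changes of -0.07 at day 7, -0.22 at day 14 and -0.15 between the times. Without replicate 1 of day 14, SNHG3 was lower than 2D (-0.54, adjusted p = 0.0207), and without replicate 2 its difference was -0.0401. SNHG20 had -0.56 at day 14 (adjusted p = 0.0582) and -0.60 between the times (adjusted p = 0.0557), both just short of the threshold and past it in 4 and 2 of the 19 alternatives. SNHG10 had -0.50 between the times (adjusted p = 0.0588), and it fell in 3 alternatives, among them that without replicate 2 of day 14 (-0.60, adjusted p = 0.0366). SNHG9 had 1.26 (adjusted p = 0.0648), with 9.15 CPM in replicate 3 of day 14 and 1.95 to 4.49 CPM in the other samples of that day. It rose from day 7 in 3 alternatives, among them that without replicate 2 of day 14 (1.65, adjusted p = 0.00970). SNHG19 and SNHG25 rose between the times only without replicate 2 of day 14 (1.61, adjusted p = 0.0223 and 2.06, adjusted p = 0.00947), against 1.19 (adjusted p = 0.122) and 1.605 (adjusted p = 0.0721) with all samples. SNHG31 had -0.42, 0.19 and 0.61 in the same 3 comparisons.

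Read assignment limits some of these values, since the strand setting and the treatment of reads with several alignments are not given in the sources used here. At least 30% of the exonic bases were shared with another gene in 8 tested host genes, namely SNHG21 (65.0%), EPB41L4A-AS1 (62.7%), SNHG32 (55.9%), SNHG25 (47.8%), SNHG16 (47.4%), SNHG7 (41.5%), SNHG8 (40.3%) and SNHG6 (37.5%). Of these 8, 7 were lower at day 7 (median log2 fold change -1.54), and of the other 19, 10 were lower (median -0.66). ZFAS1, SNHG5, SNHG1, SNHG12 and GAS5 are among the latter.

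The snoRNA rows themselves had few reads. The library protocol primes on poly(A) tails, which mature snoRNAs lack, so these rows may hold reads of introns or precursors. The table held 129 SNORD or SNORA rows inside 24 host genes, 83 of them within SNHG14, and 72 of the 129 had no count in any sample. Of the 36 rows that lie wholly inside exons of their host, none had a count in any sample. Reads there also fall on exons of the host, and how such reads were assigned is not given. These zeros therefore cannot be read as absence of the snoRNA. The 4 rows with the highest mean count are printed from GRCh38, 5′ to 3′ on the strand of the host, with box C and box D of the C/D snoRNAs and the ACA box of the H/ACA snoRNAs in capitals, because they are the intron-borne products that can be set beside their hosts.
SNORD12C: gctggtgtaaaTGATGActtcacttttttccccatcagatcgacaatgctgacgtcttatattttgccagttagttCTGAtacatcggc
SNORA24: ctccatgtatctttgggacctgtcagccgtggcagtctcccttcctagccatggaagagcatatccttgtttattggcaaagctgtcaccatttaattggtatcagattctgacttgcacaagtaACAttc
SNORA61: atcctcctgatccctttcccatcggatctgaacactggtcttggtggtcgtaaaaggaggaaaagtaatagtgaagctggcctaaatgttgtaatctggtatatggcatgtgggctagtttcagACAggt
SNORD52: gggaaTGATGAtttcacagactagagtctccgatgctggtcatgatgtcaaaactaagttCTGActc
They lie at chr20:49278940-49279028 (plus strand, in ZFAS1), chr4:118279190-118279320 (plus, in SNHG8), chr1:28579764-28579893 (minus, in SNHG12) and chr6:31837076-31837142 (plus, in SNHG32), all outside the annotated exons of the host.

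SNORD12C, a box C/D snoRNA, had 132, 269 and 265 raw counts in 2D, 51, 40 and 35 at day 7 and 43, 12 and 32 at day 14. Every scaffold sample was below every 2D sample. It fell at day 7 (-1.91 ± 0.45, adjusted p = 0.00459) as well as at day 14 (-2.42 ± 0.46, adjusted p = 0.00170). Its row passed the filter only through the 2D samples, at 2.17 to 3.48 CPM against 0.228 to 0.880 CPM in the scaffold samples. That selection favours a fall against 2D, so these p-values are no independent support for one. Between the times SNORD12C changed by -0.51 ± 0.46 (adjusted p = 0.432), at levels under 1 CPM, while the spliced host ZFAS1 rose there by 1.61 ± 0.29. The difference between these 2 changes was not tested. SNORA24 had 50, 127 and 132 counts in 2D, 62, 56 and 49 at day 7 and 51, 28 and 16 at day 14, and its log2 fold change of -1.16 ± 0.48 at day 14 did not pass the test (adjusted p = 0.0781). SNORD52 had 41, 92 and 88 counts in 2D, 46, 65 and 35 at day 7 and 43, 11 and 22 at day 14, with -1.01 ± 0.52 at day 14 (adjusted p = 0.145). SNORA61 did not pass the filter, with 34, 73 and 87 counts in 2D, 56, 47 and 60 at day 7 and 57, 21 and 43 at day 14. Summed over all 129 rows, nested snoRNAs had 9.77, 13.1 and 14.6 CPM in 2D, 9.28, 8.32 and 8.27 CPM at day 7 and 6.85, 3.24 and 5.11 CPM at day 14. This sum was lowest at day 14, where the summed CPM of the hosts was 1073, 694 and 747, against 620, 672 and 690 at day 7 and 1168, 1094 and 1168 in 2D.

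**Figure D3:**
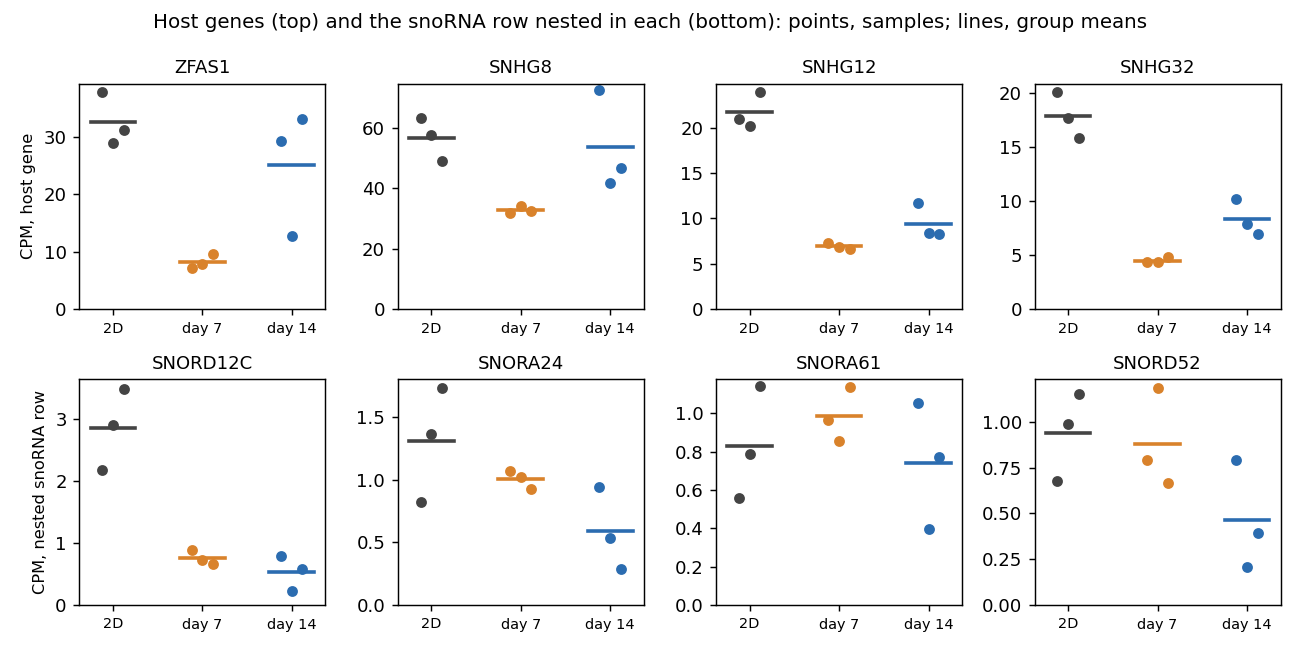
Level in CPM (TMM-scaled, y axes from 0) of 4 host genes (top) and of the snoRNA row with the most reads inside each (bottom) in 2D, at day 7 and at day 14, with 1 point per sample and a line for the mean. ZFAS1 is higher at day 14 than at day 7 in every sample, while SNORD12C lies between 0.228 and 0.880 CPM at both times.

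Several host genes start back to back with a protein-coding gene. ZNFX1, an RNA helicase of antiviral defence whose start lies 248 bases from that of ZFAS1 on the opposite strand, moved against ZFAS1 at day 7. It had 55.8, 63.4 and 64.7 CPM in 2D, 222, 184 and 169 CPM at day 7 and 122, 218 and 169 CPM at day 14, and it rose by 1.64 ± 0.20 at day 7 (adjusted p = 5.69e-05) and at day 14 it was 1.47 ± 0.20 (adjusted p = 0.000171). SLC3A2, the heavy chain of amino acid transporters, starts 196 bases from SNHG1 and had 963, 951 and 873 CPM in 2D, 340.2, 395 and 429 CPM at day 7 and 485, 637 and 468 CPM at day 14. It was lower at day 7 (-1.26 ± 0.16, adjusted p = 7.08e-05) as well as at day 14 (-0.81 ± 0.16, adjusted p = 0.00170), as SNHG1 was. RPS2, a ribosomal protein gene that starts 133 bases from SNHG9, was lower at both times (-1.89 ± 0.21, adjusted p = 3.14e-05 and -1.46 ± 0.21, adjusted p = 0.000231), while SNHG9 passed neither test. GLRX5, an iron-sulfur cluster protein gene 423 bases from SNHG10, was higher at day 14 (1.07 ± 0.23, adjusted p = 0.00356), where SNHG10 had -0.35 (adjusted p = 0.153). TRAF7, 340 bases from SNHG19, was higher at day 7 (0.58 ± 0.17, adjusted p = 0.0175), when SNHG19 was lower. BARD1 beside SNHG31 and ZBTB37 beside GAS5 passed no test (log2 fold changes at day 7 of 0.06 and -0.19).

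Lists of related genes were set beside the host genes. Over all genes, 22.2% were higher and 21.2% lower at day 7. The shares were 19.0% and 17.2% at day 14, and 14.5% and 13.6% from day 7 to day 14. Ribosomal protein genes, which share the TOP start, were lower in 66 of 76 tested at day 7 and higher in 1 (median -1.18), lower in 23 at day 14 (median -0.43), and higher in 37 with none lower from day 7 to day 14 (median 0.65). At day 7 RPL12 had -2.12 (adjusted p = 2.43e-05) and RPS3 -1.70 (adjusted p = 2.69e-05), and RPS27 rose by 1.75 between the times (adjusted p = 0.00138). The other TOP messenger RNAs of the translation apparatus were lower in 13 of 16 at day 7 (median -0.77) and in 14 of 16 at day 14 (median -0.72), and between the times 1 rose and 3 fell. EEF1A1, which brings aminoacyl-tRNA to the ribosome, had -1.83 at day 7 (adjusted p = 1.45e-05), then -1.59 at day 14 (adjusted p = 4.83e-05).

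Of other snoRNA hosts that encode no ribosomal protein, protein-coding genes apart from the noncoding DANCR, 8 of 16 were higher and 1 lower at day 7 (median 0.34), 1 higher and 3 lower at day 14 (median -0.18), and none higher and 9 lower from day 7 to day 14 (median -0.65). HSPA8, a heat shock cognate chaperone, had 2.02 at day 7 (adjusted p = 2.91e-06), CCT6A, a chaperonin subunit, 1.43 (adjusted p = 1.43e-05), and TAF1D, a subunit of the RNA polymerase I selectivity factor, -2.26 (adjusted p = 5.55e-06). Of 534 other lncRNA rows (by the GENCODE 44 gene type, with 88.5% of tested genes matched by symbol), 60 were higher and 161 lower at day 7 (median -0.37), 85 higher and 74 lower at day 14 (median -0.03), and 122 higher and 18 lower between the times (median 0.26). No test of the difference between these lists and the host genes was made.

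Proteins that bind and assemble snoRNAs were, where called, lower at day 14 than in 2D. Of the 9 core proteins of snoRNPs, 2 were higher and 2 lower at day 7, none higher and 4 lower at day 14, and 1 higher and 3 lower from day 7 to day 14 (medians -0.08, -0.43 and -0.34). Over all genes 22.2% were higher and 21.2% lower at day 7, 19.0% and 17.2% at day 14, and 14.5% and 13.6% from day 7 to day 14. At day 7 the counts of the core proteins were near these shares in both directions. NOP58, of the box C/D particle, had -0.69 at day 7 (adjusted p = 0.000722), then -1.03 at day 14 (adjusted p = 7.84e-05), FBL, the methyltransferase fibrillarin, had -0.70 at day 7 (adjusted p = 0.00454), and DKC1, the pseudouridine synthase dyskerin, had 0.57 at day 7 (adjusted p = 0.00395) and fell between the times (-1.04, adjusted p = 0.000312). Of 10 assembly factors, 4 were higher and 1 lower at day 7, none higher and 4 lower at day 14, and none higher and 5 lower between the times (medians 0.06, -0.19 and -0.53). The difference between these lists and the host genes was not tested.

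Factors of nonsense-mediated decay, the pathway that removes spliced host RNAs once they are translated, were higher in 11 of 20 and lower in 1 at day 7 (median 0.70), higher in 6 and lower in 1 at day 14 (median 0.31), and lower in 7 with none higher from day 7 to day 14 (median -0.38). SMG5, which acts in the decay of the target, had 1.603 at day 7 (adjusted p = 2.06e-05), then 0.91 at day 14 (adjusted p = 0.00108), UPF1, the helicase of the pathway, had 1.13 at day 14 (adjusted p = 0.00114), and SMG1, the kinase of UPF1, had -1.02 at day 7 (adjusted p = 0.00109). Among 18 genes of mTORC1 and the control of TOP messenger RNAs, 4 were higher and 4 lower at day 7. The counts were 3 and 6 at day 14, and 4 and 2 between the times. Over all genes the shares were 22.2% and 21.2%, 19.0% and 17.2%, and 14.5% and 13.6% in these comparisons. At day 7 the counts of this list were near those shares. MTOR, the kinase, had 1.47 at day 7 (adjusted p = 5.35e-05) and -1.34 between the times (adjusted p = 0.000347), and EIF4EBP1, a translational repressor that it phosphorylates, had -2.11 (adjusted p = 3.67e-06) and 1.30 (adjusted p = 0.000209). Messenger RNA levels say nothing of the activity of these proteins.

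**Figure D4:**
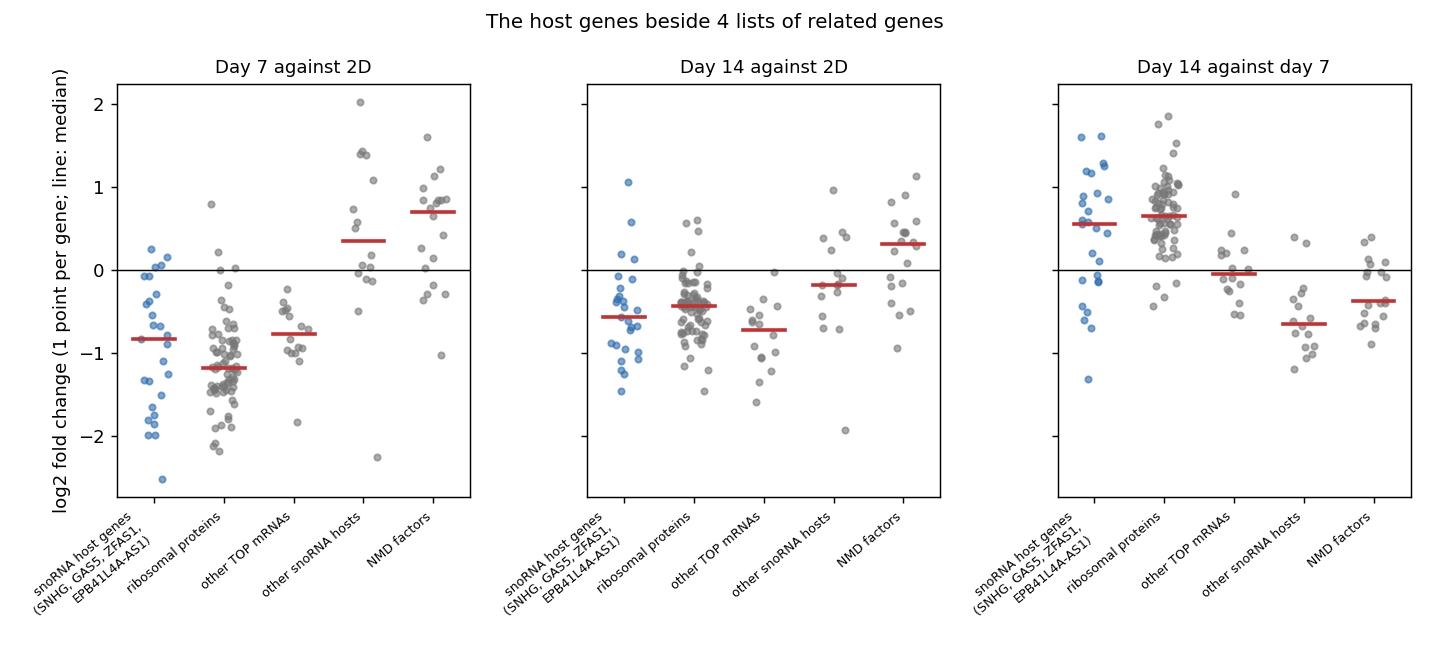
Log2 fold change of every tested gene (1 point per gene, red line for the median) of the host genes and of 4 lists of related genes in 3 comparisons. The medians of the host genes were -0.83, -0.56 and 0.55, and those of the ribosomal protein genes -1.18, -0.43 and 0.65. Those of the other TOP messenger RNAs were -0.77, -0.72 and -0.04. The other snoRNA hosts had 0.34, -0.18 and -0.65, and the decay factors 0.70, 0.31 and -0.38. No difference between the lists was tested.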

How the data were processed

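RNA of MEC1 cells was measured in 9 samples, 3 in 2D, 3 at day 7 and 3 at day 14 in 3D. Libraries were prepared with SMART-Seq v4, which primes on poly(A) tails. The authors trimmed reads with Trimmomatic (version 0.39), aligned them to GRCh38 with STAR (2.5.3a) and assigned them to genes with featureCounts (1.6.4). The deposited values were raw counts per gene symbol without normalization, with 54662799 to 85968686 counts per sample.

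Of 51726 genes with a count, the 13463 whose CPM exceeded 1 in 3 or more samples were tested. In R (4.3.3), edgeR (4.0.16) was used with TMM factors, 1 model of the 9 samples and the quasi-likelihood test for 3 contrasts. P-values were adjusted over all retained genes with the Benjamini-Hochberg method, with a threshold of 0.05. SE was derived from the fold change and F statistic. CPM values were TMM-scaled, and RPKM divided them by the deposited exon length. The labels do not say whether replicate numbers pair samples. Correlations of same-numbered samples were -0.100 to 0.185, which alone cannot show whether samples were paired, and the main model had no pairing.

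Every host gene that passed the filter was named, and values per sample were given for those called with a log2 change of 1 or more in size or among the 10 with the highest mean CPM. From each list of related genes, the 2 with the smallest p-values in a direction could be named. The host genes and all lists were chosen with earlier results of these data known. Alternatives were DESeq2 size factors, total counts alone, TMM without immunoglobulin, ribosomal protein and mitochondrial genes, the DESeq2 (1.42.0) Wald test, filterByExpr, no filter, only the 6 samples of a contrast, a replicate block, a length trend removed by loess (span 0.4), the last 2 together, each sample left out, and a minimum absolute log2 fold change of 1. The pipeline was tested on simulated data.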

Additional observations from a re-analysis of the deposited data

Results flagged for a closer look

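The change against 2D differed between day 7 and day 14 for 12 host genes, tested directly as day 14 against day 7 in edgeR's quasi-likelihood test with adjustment over all 13463 genes. Of the 27 tested, 11 rose (40.7%) and 1 fell (3.70%), against 14.5% and 13.6% of all genes. The largest rise was that of ZFAS1 (log2 fold change 1.61, adjusted p = 0.00219), with all 3 samples of day 14 above all 3 of day 7. SNHG6 rose by 1.29 (adjusted p = 0.00607) and EPB41L4A-AS1 by 1.17 (adjusted p = 0.00228). SNHG5 rose by 0.92 (adjusted p = 0.00929), SNHG32 by 0.89 (adjusted p = 0.00759) and SNHG21 by 0.86 (adjusted p = 0.0179). SNHG30 rose by 0.80 (adjusted p = 0.0132), and it was also above 2D. SNHG8 rose by 0.71 (adjusted p = 0.0186), SNHG7 by 0.57 (adjusted p = 0.0388), SNHG29 by 0.55 (adjusted p = 0.0492) and GAS5 by 0.51 (adjusted p = 0.0423). SNHG4 went the other way, with a log2 fold change of -1.32 (adjusted p = 0.00761). ZFAS1, SNHG6, EPB41L4A-AS1, SNHG5, SNHG30 and SNHG4 passed the threshold in all 19 alternatives. The rises of SNHG29, GAS5 and SNHG7 were lost in 12, 11 and 10 of them, and those of SNHG21, SNHG8 and SNHG32 in 5, 3 and 2.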

How the results depend on the processing

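With 3 samples in each group and a wide spread at day 14, changes well under a doubling were often not detectable, and SNHG19 and SNHG25 rest on few reads. Of the called results, 14 of 17 at day 7, 9 of 13 at day 14 and 6 of 12 between the times stayed past the threshold in all 19 alternatives, and no called result changed sign. Of the results not called, 14 gained a call in 1 to 4 of the alternatives. No host gene was called higher at day 7 in any alternative, and 1, SNHG30, was called higher at day 14 in every one. Leaving out 1 sample gave 14 to 17 host genes lower at day 7 and 10 to 14 lower at day 14, and 6 to 14 higher and 1 to 2 lower between the times. The median was then -0.98 to -0.83, -0.64 to -0.45 and 0.31 to 0.64 in these comparisons. The count that rose was 6 without replicate 2 and 7 without replicate 3 of day 7. With a minimum absolute log2 fold change of 1, 12 were lower at day 7, 5 at day 14, and 3 were higher between the times. Total counts alone shifted the median of all genes to -0.16 at day 7 and -0.18 at day 14, and that of the host genes to -0.99 and -0.78, with 2 lower between the times. The DESeq2 Wald test gave 5 lower between the times (SNHG4, SNHG10, SNHG16, SNHG20 and SNHG26), no filter gave 2, and only the 6 samples gave 7 higher. The replicate block left 17 host genes lower at day 7 and 12 at day 14, with 9 higher between the times. Whether the numbers pair the samples is not known. With the replicate block and the length trend removed together, the median between the times was 0.42.

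Log2 fold changes of 14 results that passed no test changed sign. At day 7, SNHG4 had -0.10 with total counts alone, -0.0790 with the length trend removed and -0.0860 with the block as well, and -0.30 to 0.29 without 1 sample. SNHG10 had -0.0070 with total counts alone and -0.0040 with the block and length trend. SNHG20 had -0.13 with total counts alone, -0.0018 with TMM without immunoglobulin, ribosomal protein and mitochondrial genes, -0.11 with the length trend removed, -0.10 with the block as well and -0.16 to 0.23 without 1 sample. At day 14, SNHG31 had -0.0013 and SNHG11 -0.0877 with total counts alone, and SNHG8 had 0.0305 with the length trend removed. Leaving out 1 sample gave -0.35 to 0.0754 for SNHG8, -0.11 to 0.97 for SNHG9, -0.91 to 0.10 for SNHG19, -0.36 to 0.0245 for SNHG29 and -0.0219 to 0.30 for SNHG11. Between the times, with the length trend removed, SNHG15 had 0.0069, SNHG1 0.0078 and SNHG17 0.0313. Leaving out 1 sample gave -0.45 to 0.0320 for SNHG3, -0.34 to 0.0611 for SNHG15, -0.10 to 0.29 for SNHG14 and -0.34 to 0.0485 for SNHG17. The cause was not tested.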
